A study of Rattus norvegicus with 12 samples.

Results

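The neuronal intermediate filament genes of the rat are Nefl, Nefm and Nefh, which encode the light, medium and heavy neurofilament subunits, Ina, which encodes alpha-internexin, and Prph, which encodes peripherin. All 5 were measured, of 14506 genes with a named probe set, each by 1 probe set that carried a single gene symbol. The family was chosen by its measured values, namely the lower level of Nefl and Nefm in homozygous embryos in this same comparison, so the genotype differences of its members are a description, and no test of them is used as support. RNA was taken at embryonic day 14 from whole ganglionic eminences, medial and lateral together, and each of 12 rat embryos gave 1 array. The homozygous group (6 embryos) was homozygous for BACHD, a transgene for the whole human huntingtin protein with 96 CAG repeats, and the control group (6 embryos) was wild type. All embryos came from 3 transgenic dams dissected on 1 day, and dam and sex were not given for single embryos. Because whole eminences were used, fewer neurons and less transcript per neuron cannot be told apart.

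Intermediate filament proteins of neurons share a coiled-coil rod and assemble side by side into filaments that fill the axon. Nefl forms the core with which Nefm and Nefh co-assemble, and the long phosphorylated tails of Nefm and Nefh are known for setting axon calibre. Ina is abundant in newly born central neurons before neurofilament subunits accumulate, Nefh appears late as axons mature, and Prph is best known from peripheral and motor neurons. In the ganglionic eminence, neurons leave the dividing zones that hold the progenitor filaments Vim and Nes and begin to make neuronal filaments in the mantle.

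The values are log2 intensities, on which 1 unit is a doubling. Array medians lay between 7.67 and 7.71 in wild type, and between 7.69 and 7.76 in homozygous arrays. The median difference over all genes, homozygous minus wild type, was 0.02. Of 14 measured genes that mark the eminences, among them Dlx5, Nkx2-1 and Gad1, none was as dim as the reference for unexpressed genes. That reference was the 95th percentile of the levels of 53 olfactory receptor genes, 6.79. Another 9 eminence markers, including Dlx2, had no probe set with a single name and were not analysed here.

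Nefl, without which neurofilaments do not assemble, was lower in every homozygous embryo than in any wild-type embryo. Its lowest, median and highest log2 intensities were 9.89, 10.09 and 10.17 in wild type and 9.46, 9.62 and 9.87 in homozygous embryos. The groups did not overlap, but the brightest homozygous embryo lay only 0.026 below the dimmest wild-type embryo. The means were 10.06 ± 0.112 and 9.64 ± 0.139 (SD, n = 6 each), a difference of -0.42 ± 0.065 (log2, SE), or 1.34-fold lower. Among all genes this was number 3 counted from the largest negative difference.

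Nefm, the medium subunit, was lower too, by a smaller amount. Its lowest, median and highest values were 10.001, 10.04 and 10.20 in wild type and 9.76, 9.84 and 9.997 in homozygous embryos. The means were 10.07 ± 0.0735 and 9.86 ± 0.0893 (SD, n = 6 each), a difference of -0.21 ± 0.045 (log2, SE), or 1.16-fold lower. Among all genes Nefm was number 92 counted from the largest negative difference. The gap between the lowest wild-type and the highest homozygous embryo was only 0.0040, and it was -0.017 after quantile normalization and -0.012 after cyclic loess, where a gap below 0 is an overlap. For Nefl these gaps were 0.030 and 0.022.

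**Figure D1:**
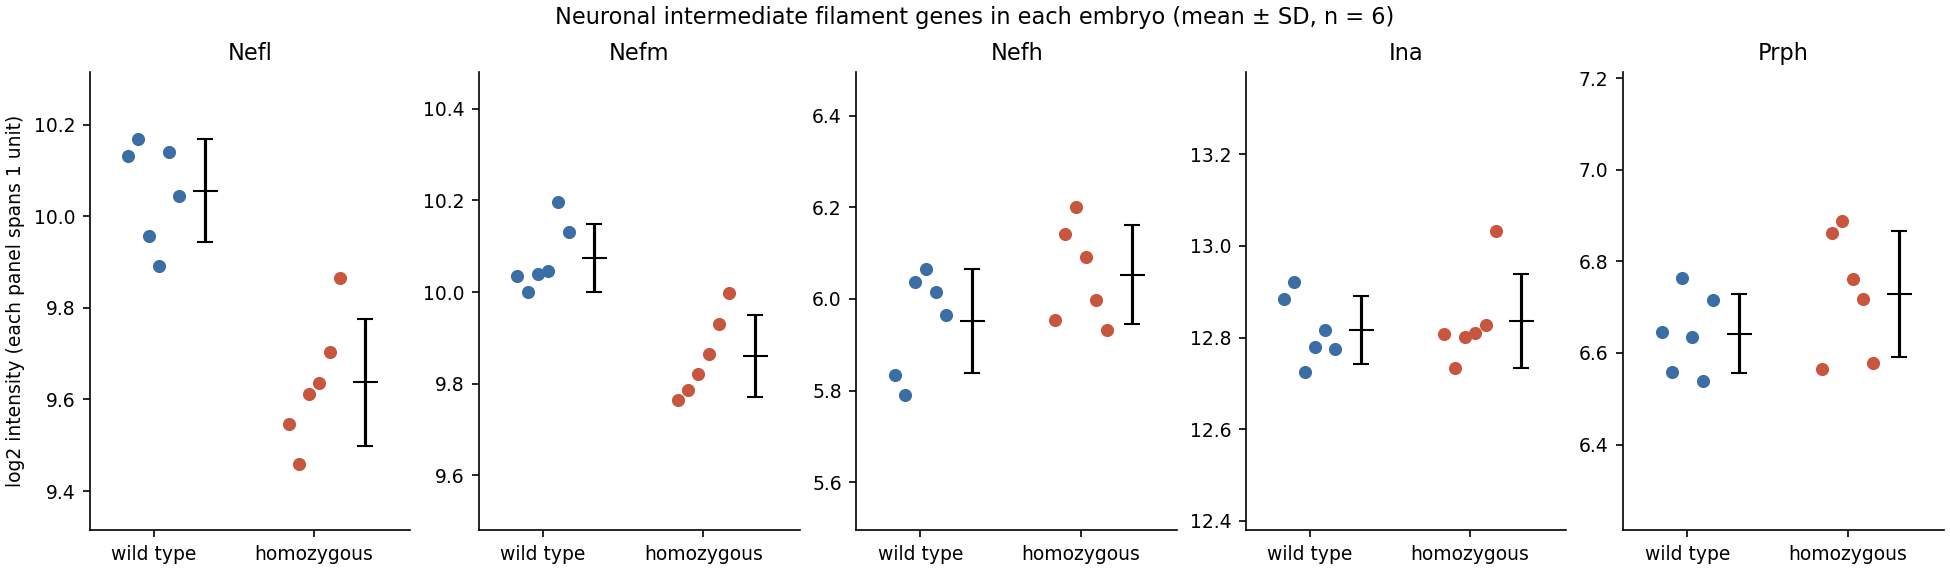
Log2 intensity of the 5 genes in each embryo (points), with mean ± SD beside each group of 6; every panel spans 1 log2 unit but starts at a different level, and levels of different probe sets are not comparable. Homozygous embryos lie below wild type for Nefl (means 9.64 and 10.06) and Nefm (9.86 and 10.07), while the groups overlap for Nefh, Ina and Prph.

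Ina, the filament protein of young central neurons, was not lower. Its lowest, median and highest intensities were 12.73, 12.80 and 12.92 in wild type and 12.73, 12.81 and 13.03 in homozygous embryos. The groups overlapped almost fully, and only homozygous 6 exceeded the wild-type range. The difference was 0.02 ± 0.046 (log2, SE), and it was -0.02 both without homozygous 6 and with arrays centred on their medians, so no direction can be read. The level was above that of 99.3% of all genes, although brightness on these arrays also depends on the probes. The Ina promoter is shown because Ina served below as the neuronal filament that Nefl was set against. The RefSeq promoter table of GRCr8 matched 2 of the 5 members, Ina and Prph. The sequence is the 250 bases before the start of Ina, chr1:255837879-255838128 on the plus strand, with GC boxes (GGGCGG on either strand, here read as CCGCCC) in capitals.
Ina: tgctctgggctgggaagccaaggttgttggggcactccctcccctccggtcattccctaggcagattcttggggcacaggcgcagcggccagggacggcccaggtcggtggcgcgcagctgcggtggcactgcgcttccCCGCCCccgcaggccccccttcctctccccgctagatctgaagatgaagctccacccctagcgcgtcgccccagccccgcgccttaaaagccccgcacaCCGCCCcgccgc
Its 250 bases were 70.8% G and C, more than in 92.8% of 33469 promoter windows of the same length, and held 2 GC boxes, a motif present at least once in 30.5% of them. It held 1 E-box (CANNTG), the motif of proneural factors, found in 65.5% of windows (both strands). The letters TATAAA and CCAAT, found in 12.9% and 34.0% of windows, were not in it. The Prph window held 1 GC box, 1 TATAAA and no E-box, but its start site lies 401 bases inside the RefSeq bounds of the gene. These are matches of letters and say nothing of binding.

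Nefh and Prph were dim. Nefh, the heavy subunit of mature axons, had lowest, median and highest values of 5.79, 5.99 and 6.07 in wild type and 5.93, 6.04 and 6.20 in homozygous embryos. Those of Prph were 6.54, 6.64 and 6.76 in wild type and 6.57, 6.74 and 6.89 in homozygous embryos. The groups overlapped in each gene. The differences were 0.10 ± 0.065 for Nefh and 0.09 ± 0.065 for Prph (log2, SE), but 0.046 and 0.027 after quantile normalization, 0.045 and 0.029 after cyclic loess, and 0.064 and 0.049 with centred arrays. Without wild type 1 and wild type 2 that of Nefh was 0.032. Of the 53 olfactory receptor genes, 9 were brighter than Nefh and 4 were brighter than Prph on average, so a signal above that of unexpressed genes was not shown for either.

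By the fit over all probe sets (limma, Benjamini-Hochberg adjusted p under 0.05), 1 of the 5 members was called, Nefl, where 0.424% of all 29214 probe sets were called, 0.199% were called lower in homozygous embryos, and 0.469% of the 14506 genes were called by their brightest probe set. The groups did not overlap in the lower direction in 2 of 5 members, against 0.698% of all probe sets. Since these differences chose the family, nothing is read from either count, or from the p-values that follow, which record only how the call depended on single arrays. The call of Nefl was lost in limma without wild type 5 (adjusted p = 0.0621) or 6 (0.0540) and without homozygous 1 (0.0554), 2 (0.0572), 3 (0.0791), 4 (0.0678) or 5 (0.0671). Nefm was not called, but was called in limma without homozygous 6 (adjusted p = 0.0492), without wild type 1 and wild type 2 together (0.0283), and with arrays centred on their medians (0.0188). Over the 12 fits that left out 1 array, the difference stayed between -0.46 and -0.38 for Nefl and between -0.24 and -0.19 for Nefm.

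Set against Ina or the mean of young-neuron genes of the same embryo, the gap between the genotypes in Nefl was wider than for Nefl alone, whereas set against Nefm the groups overlapped. A difference between 2 probe sets of an array has no absolute meaning, but its change between genotypes shows unequal change. Nefl minus Ina lay between -2.89 and -2.68 in wild-type embryos and between -3.27 and -3.12 in homozygous ones. The groups were thus 0.24 apart, compared with 0.026 for Nefl alone. The gap of Nefl alone was set by homozygous 6 (Nefl 9.87, next homozygous embryo 9.70). That embryo also had the highest Ina (13.03), so much of the contrast between these gaps rests on it. The means of Nefl minus Ina were -2.76 ± 0.0696 and -3.20 ± 0.0579 (SD, n = 6 each). Its SD in homozygous embryos was below that of Nefl itself, 0.139. After quantile normalization the groups were still 0.19 apart, and after cyclic loess 0.22.

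Nefm minus Ina lay between -2.92 and -2.62 in wild-type embryos and between -3.04 and -2.90 in homozygous ones, a mean change of -0.23 with a gap of -0.021. Relative to the mean of 32 genes of young neurons, Nefl lay between -1.50 and -1.24 in wild-type embryos and between -1.88 and -1.56 in homozygous ones, without overlap. The mean of Nefm relative to the same genes differed by -0.19, and its gap was -0.052. Ina relative to that mean differed by 0.04 and its groups overlapped too. Nefl minus Nefm lay between -0.15 and 0.17 in wild-type embryos and between -0.33 and -0.13 in homozygous ones, a mean difference of -0.20 with overlapping groups. The differences that use Nefl or Nefm are descriptions like those above.

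**Figure D2:**
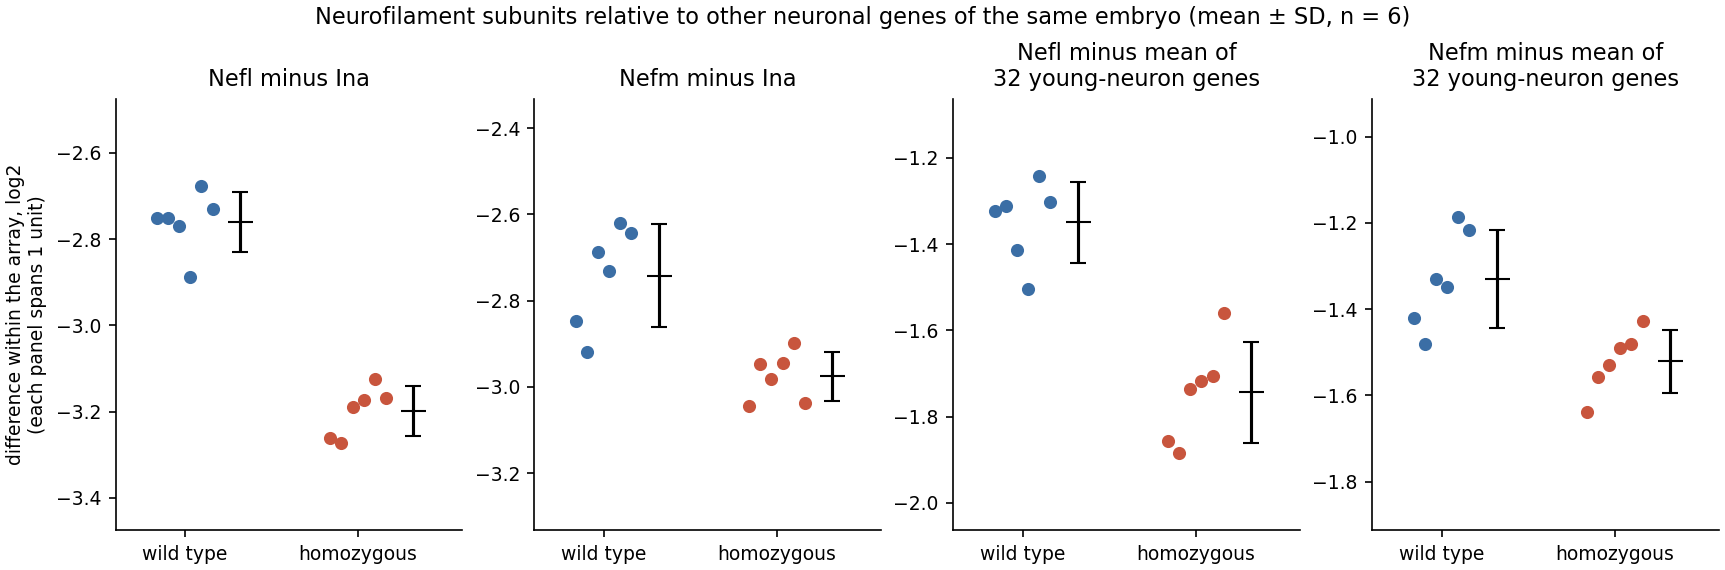
Log2 intensity of Nefl or Nefm minus that of Ina, or minus the mean of 32 young-neuron genes, in each embryo (points), with mean ± SD beside each group of 6; each panel spans 1 log2 unit. Both comparisons of Nefl separate the genotypes (for Nefl minus Ina, means of -2.76 and -3.20), and both comparisons of Nefm overlap.

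Variation among embryos of 1 genotype was not used to choose the genes and was tested by itself. The pooled SD within genotypes was 0.126 for Nefl, larger than in 89.8% of the 7253 brighter genes (those above the median level), and 0.0818 for Nefm and 0.0892 for Ina, larger than in 66.5% and 72.1%. The highest correlations were seen in homozygous embryos, where none passed adjustment over all pairs. For Nefl and Nefm Pearson's r was 0.94 (n = 6, exact permutation p = 0.00417, adjusted 0.0556) and Spearman's rho 0.94 (exact p = 0.0167, adjusted 0.133), and r was 0.99 without the 2 embryos farthest from the median of Nefl. In wild-type embryos r was 0.16 (n = 6, exact p = 0.756, adjusted 0.775) and rho -0.26 (exact p = 0.658, adjusted 0.752), with r of -0.41 without the 2 farthest embryos. The difference between the genotypes in this correlation was not tested. In homozygous embryos Nefm rose with each replicate number, from 9.76 in homozygous 1 to 9.997 in homozygous 6. Nefl rose from homozygous 2 (9.46) to homozygous 6 (9.87). The part of this order in the correlation was not tested.

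Nefl and Ina in homozygous embryos had r of 0.93 (n = 6, exact p = 0.00417, adjusted 0.0556), rho of 0.94 (exact p = 0.0167, adjusted 0.133) and r of 0.79 without the 2 farthest embryos. In wild type r was 0.80 (n = 6, exact p = 0.0778, adjusted 0.248), rho 0.77 (exact p = 0.103, adjusted 0.316) and r without the 2 farthest 0.84. Nefm and Ina had r of 0.83 in homozygous embryos (exact p = 0.0181, adjusted 0.111; rho 0.83, exact p = 0.0583, adjusted 0.233), which fell to 0.35 without the 2 embryos farthest in Nefm, so this relation rests on them. In wild type it was -0.30 (exact p = 0.558, adjusted 0.620; rho -0.49, exact p = 0.356, adjusted 0.459).

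The 2 dim genes, Nefh and Prph, had r of 0.97 with each other in homozygous embryos (n = 6, exact p = 0.00556, adjusted 0.0556; rho 0.94, exact p = 0.0167, adjusted 0.133) and 0.34 in wild type (exact p = 0.478, adjusted 0.546; rho 0.20, exact p = 0.714, adjusted 0.793). Without the 2 embryos farthest in Nefh these were 0.94 and -0.15. Nefh ran opposite to Ina in wild type (r -0.90, exact p = 0.0236, adjusted 0.118; rho -0.71, exact p = 0.136, adjusted 0.320), a relation that fell to -0.18 without the 2 farthest embryos. The mean of the 53 olfactory receptor genes, a measure of signal without expression, lay between 4.99 and 5.10 in wild type, and between 4.99 and 5.15 in homozygous arrays. Its r with Prph was 0.64 in wild type and 0.67 in homozygous arrays (exact p = 0.167 and 0.131, adjusted 0.317 and 0.296; rho 0.66 in both, exact p = 0.175). Without the 2 arrays farthest in Prph these were 0.91 and -0.49. Its part in the covariation of the dim genes was not tested.

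The mean of the 32 young-neuron genes was set against each member as well. Its r with Ina was 0.91 in wild type (exact p = 0.0181, adjusted 0.111; rho 0.89, exact p = 0.0333, adjusted 0.190), which fell to 0.28 without the 2 embryos farthest in Ina, and 0.73 in homozygous embryos (exact p = 0.00417, adjusted 0.0556; rho 0.94, exact p = 0.0167, adjusted 0.133), with 0.69 without the 2 farthest. In homozygous embryos its r was -0.93 with Nefh (exact p = 0.0347, adjusted 0.154; rho -0.89, exact p = 0.0333, adjusted 0.190) and -0.87 with Prph (exact p = 0.0444, adjusted 0.178; rho -0.77, exact p = 0.103, adjusted 0.316), with -0.94 and -0.78 without the 2 farthest. Ina and the olfactory receptor mean had r of -0.89 in wild type (exact p = 0.0194, adjusted 0.111; rho -0.94, exact p = 0.0167, adjusted 0.133) and -0.34 without the 2 farthest; it was -0.36 after quantile normalization and -0.39 after cyclic loess. In all, 40 correlations were computed over pairs of members, members against the young-neuron mean and members against the olfactory receptor mean. Of these, 10 had an exact p under 0.05 for Pearson's r and none after Benjamini-Hochberg adjustment, where the lowest was 0.0556. For Spearman's rho the smallest exact p that 6 embryos allow is 0.00278.

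**Figure D3:**
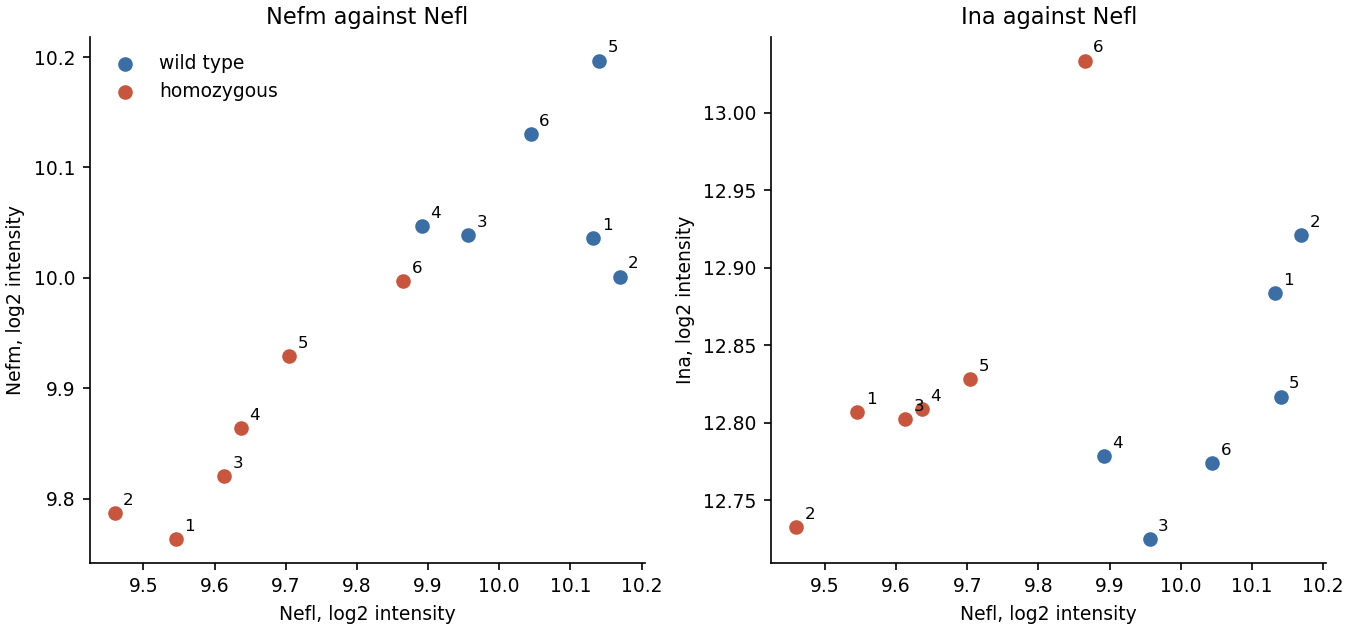
Nefm (left) and Ina (right) against Nefl, as log2 intensities, with 1 point per embryo and its replicate number. Homozygous embryos lie along a line in the left panel (r = 0.94) and wild-type embryos do not (r = 0.16); in the right panel each genotype has its own rising band (r = 0.93 and 0.80), shifted along the Nefl axis.

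The genes most like Nefl across embryos were ranked by Pearson's r over the 12 deviations from the genotype means, among 7252 other brighter genes, as a description. The highest were Xkr4 (0.90), Ina (0.88), Tmod2, a neuronal cap of actin filaments (0.88), Slc18a2, the vesicular monoamine transporter (0.87), the proteasome subunit gene Psma4 (0.87) and Tmeff1 (0.87). Nefm was number 248 (0.63). For Nefm the highest were Tac1, the precursor of substance P (0.91), Glud1, glutamate dehydrogenase (0.90), Zfyve27, the endoplasmic reticulum protein protrudin (0.88), Ppp3cb, a calcineurin catalytic subunit (0.86), the phosphate exporter Xpr1 (0.84) and the mitotic kinesin Kif4a (0.83). No gene stood in both groups of 6, Nefl was number 196 for Nefm, and Ina was number 1039 (0.41). Of 31 young-neuron genes among the brighter genes, 26 had r above 0 with Nefl (median 0.46, beside 0.11 over all brighter genes) and 16 with Nefm (median 0.19, beside -0.05). All these values share the same 12 arrays and their scaling. The top values of r were picked from 7252 genes, so they are high by selection, and they were not tested.

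Genes that work with the filaments showed no call, although in simulated data the fit recovered only 42% of differences of 0.2. Across 13 lists of related genes and of cell types, 165 of 208 entries were measured and none was called in limma, where 0.469% of all genes were; 32 had an unadjusted p under 0.05, against 4379 of 29214 probe sets. Of 14 other intermediate filament genes none was called, 13 lay above 0 and the median difference was 0.05, but with arrays centred on their medians only 9 lay above 0, after quantile normalization 10 and after cyclic loess 9. The progenitor filaments Vim and Nes differed by 0.0031 ± 0.019 and 0.013 ± 0.036 (log2, SE). The lowest p among them was that of Synm, which encodes synemin (0.14 ± 0.052), followed by Krt14 (0.13 ± 0.070).

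Among 8 linkers and motors of neurofilaments, none was called, and the median was 0.03. Kif5a, the neuronal kinesin that carries neurofilament proteins along axons, differed by 0.07 ± 0.027 with every homozygous embryo (10.768 to 10.90) above every wild-type embryo (10.69 to 10.766). Over all lists the groups did not overlap in 3 genes, Kif5a, Nkx2-1 and Cdh5, all higher in homozygous embryos, as were 1.16% of all probe sets. Dync1h1, the heavy chain of dynein, differed by 0.08 ± 0.057. Of 12 genes for kinases, chaperones and ubiquitin ligases that act on neurofilament proteins, none was called, and the median was 0.00. Stub1, a ligase that works with chaperones, differed by 0.06 ± 0.026. Hspb8, a small heat shock protein below the olfactory receptor reference, differed by -0.15 ± 0.068. Of 9 genes for proteins that bind neurofilament transcripts or regulate neuronal filament genes, none was called either. Rest, the repressor of neuronal genes, differed by 0.11 ± 0.041, and the immediate early factor Egr1 by 0.15 ± 0.056, and the median was 0.02.

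The neurons themselves were represented by 32 genes, of which none was called and 23 lay below 0 (median -0.02, beside 0.02 over all genes). With centred arrays 26 lay below 0 (median -0.06, beside -0.02 over all genes), after quantile normalization 25 and after cyclic loess 23. Nsg2, an endosomal protein of young neurons, differed by -0.12 ± 0.026 and Map2, a dendritic microtubule-binding protein, by 0.09 ± 0.026, both short of the threshold (adjusted p = 0.0670 and 0.131 in limma). Tubb3, Dcx and Stmn2, which mark newborn neurons, differed by -0.01 ± 0.028, -0.04 ± 0.024 and -0.01 ± 0.020. The largest negative differences of the list were those of Syt4, a synaptotagmin (-0.25 ± 0.081), and Gap43, a growth cone protein (-0.19 ± 0.062), each with 3 homozygous embryos below the wild-type range, and neither was called. Without wild type 3, Nsg2 was called (adjusted p = 0.0385 in limma), and without wild type 1 and wild type 2 together the stathmin genes Stmn3 and Stmn4 and the G protein subunit gene Gng3 were called higher (0.25, 0.18 and 0.22; adjusted p = 0.00196, 0.0384 and 0.0119 in limma). Of 13 genes of the axon's spectrin, ankyrin and tubulin cytoskeleton none was called (median 0.01), with the neuronal gene Mllt11 at -0.10 ± 0.040 and the spectrin gene Sptan1 at 0.07 ± 0.036.

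**Figure D4:**
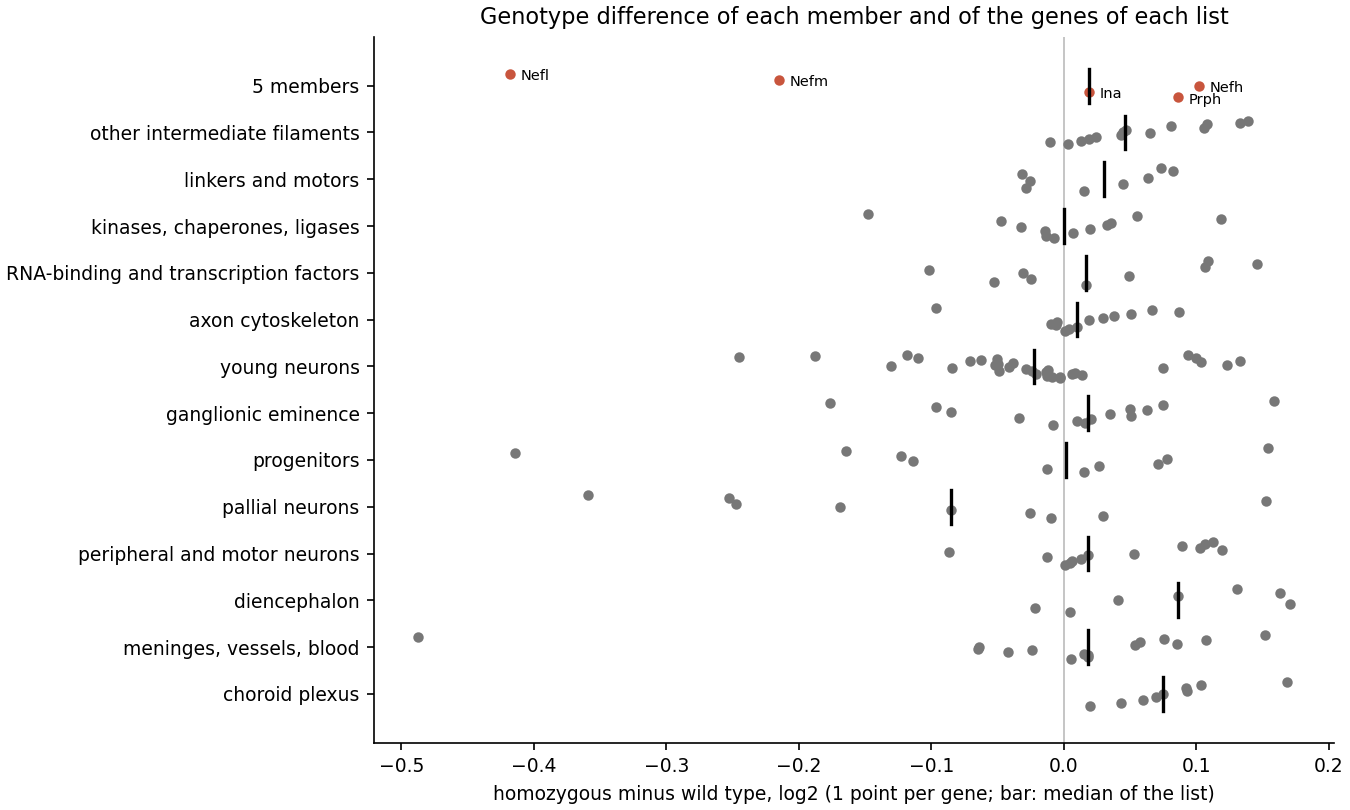
Homozygous minus wild-type difference (log2) of each member and of every measured gene of 13 lists, 1 point per gene, with the median of each list as a bar. Nefl (-0.42) and Nefm (-0.21) lie to the left of the other members, and no gene of the lists was called. Some list genes lie as far left or farther, among them Hbb (-0.49), Fabp7 (-0.41) and, beyond Nefm, Neurod6 (-0.36).

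The level of the young-neuron genes was compared with Nefl embryo by embryo, and the amount of neuronal tissue itself was not measured. The mean of the 32 young-neuron genes lay between 11.35 and 11.48 in wild-type embryos and between 11.34 and 11.43 in homozygous ones, and the groups overlapped. The highest homozygous mean was that of homozygous 6 (11.43), with Nefl of 9.87, and the lowest wild-type mean that of wild type 6 (11.35), with Nefl of 10.04. At the other ends, wild type 2 had the highest wild-type mean (11.48) and Nefl of 10.17. The lowest homozygous mean was that of homozygous 2 (11.34), with Nefl of 9.46. Nefl and this mean had r of 0.56 in wild type (exact p = 0.242, adjusted 0.387; rho 0.49, exact p = 0.356, adjusted 0.459) and 0.70 in homozygous embryos (exact p = 0.124, adjusted 0.296; rho 0.83, exact p = 0.0583, adjusted 0.233), and 0.82 and 0.11 without the 2 embryos farthest in Nefl.

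Pallial neurons, which border the dissected tissue, were represented by 9 genes, of which none was called, 7 lay below 0 and none was as dim as the olfactory receptor reference. Another 5 pallial genes, including Tbr1 and Eomes, were not analysed here. Neurod6 differed by -0.36 ± 0.105 and the vesicular glutamate transporter gene Slc17a7 by -0.25 ± 0.083 (log2, SE; adjusted p = 0.145 and 0.187 in limma). The mean of the 9 genes lay between 9.25 and 9.63 in wild-type embryos and between 9.32 and 9.38 in homozygous ones. In 4 of the 6 wild-type embryos (9.47 to 9.63) the mean was above every homozygous embryo, and in wild type 5 and 6 (9.25 and 9.27) it was below every homozygous embryo. The Nefl values of the 2 embryos were 10.14 and 10.04. Wild type 4 had the highest pallial mean (9.63) and Nefl of 9.89. Wild type 1, 2 and 3 had pallial means of 9.52, 9.47 and 9.55 and Nefl of 10.13, 10.17 and 9.96. The relation of Nefl to the pallial mean was not tested.

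**Figure D5:**
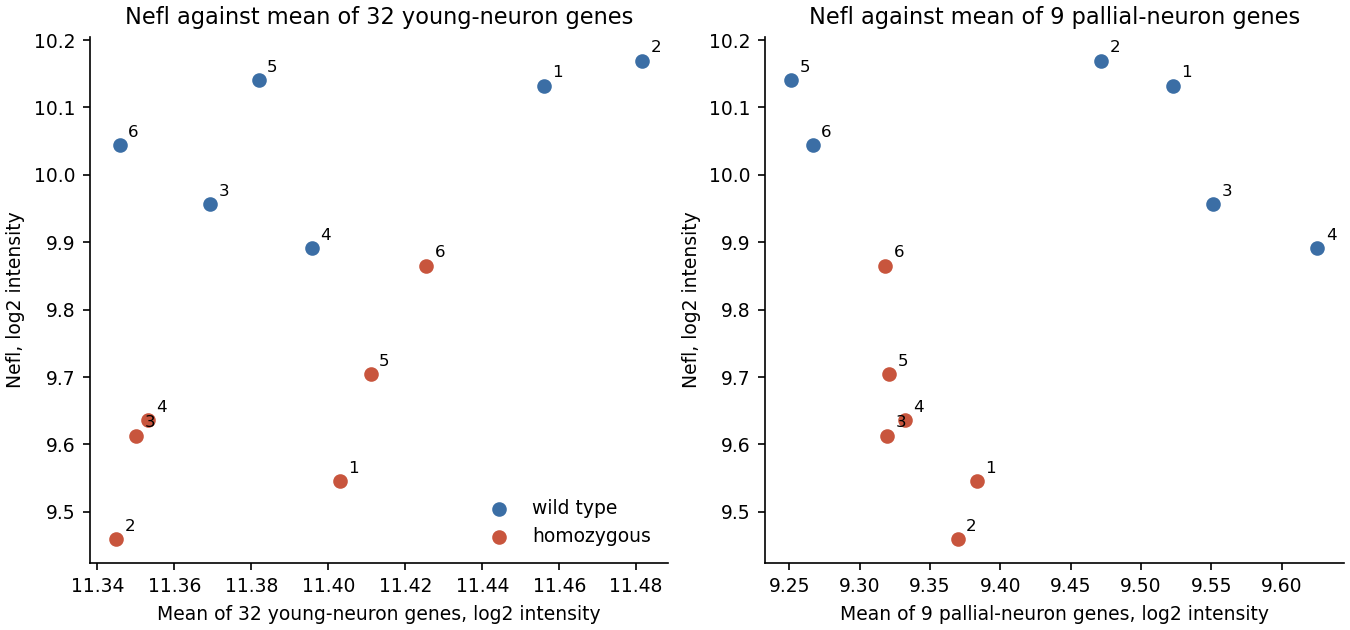
Nefl against the mean of 32 young-neuron genes (left) and of 9 pallial-neuron genes (right), as log2 intensities, 1 point per embryo with its replicate number. The young-neuron means overlap (11.35 to 11.48 and 11.34 to 11.43); of the wild-type embryos 4 lie above and 2 below the narrow range of homozygous pallial means (9.32 to 9.38).

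Peripheral and motor neurons, the main site of Prph, were represented by 13 genes, none of them called, and 4 of them (Isl2, Slc5a7, Scn10a and Trpv1) were at or below the olfactory receptor reference. Their mean lay between 7.29 and 7.41 in wild-type embryos and between 7.34 and 7.47 in homozygous ones. P2rx3, a receptor of sensory neurons, differed by 0.11 ± 0.043 and Pou4f1, a factor of sensory neurons, by 0.11 ± 0.043. Diencephalic genes (7 measured, median 0.09; Lhx5 0.13 ± 0.074 and Otp 0.16 ± 0.113), genes of meninges, vessels and blood (15, median 0.02; Cdh5 0.15 ± 0.033 and Hbb -0.49 ± 0.147) and choroid plexus genes (9, median 0.07; Ttr 0.17 ± 0.058 and Msx1 0.10 ± 0.048) held no call. Lum and Dcn of the meninges and Ttr, Folr1, Clic6 and Msx1 of the choroid plexus were at or below the olfactory receptor reference. The diencephalic median was 0.04 and the choroid median 0.02 after quantile normalization and after cyclic loess. Of the 13 lists, 3 had a median below 0, but with centred arrays 10 did (beside -0.02 over all genes), among them linkers (-0.0077), eminence genes (-0.02) and genes of meninges, vessels and blood (-0.02). The means of these lists overlapped between wild-type and homozygous embryos: 8.34 to 8.63 and 8.38 to 8.75 for diencephalon, 7.90 to 8.02 and 7.92 to 7.98 for meninges, vessels and blood, 6.56 to 6.66 and 6.56 to 6.79 for choroid plexus. Neither did the 10 progenitor genes hold one (median 0.0015; Hes5 0.15 ± 0.042 and Slc1a3 -0.16 ± 0.049, with the largest difference in the radial glia gene Fabp7, -0.41 ± 0.128, lower than the wild-type range in 4 homozygous embryos), nor the 14 eminence genes (median 0.02; Nkx2-1 0.16 ± 0.040, Dlx5 -0.18 ± 0.080 and Gad1 0.06 ± 0.040). Every homozygous embryo was above every wild-type embryo for Nkx2-1, the factor that specifies the medial eminence, and for Cdh5, a cadherin of vessel walls (gaps of 0.0084 and 0.064). Progenitor means were 11.08 to 11.22 in wild type against 11.09 to 11.15, and eminence means 10.83 to 10.96 against 10.86 to 10.98. The part of these cell types in the Nefl difference, and that of the share of medial and lateral tissue, was not tested.

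Nefl and Nefm are next to each other among the protein-coding genes of GRCr8. The nearest measured genes beyond this pair, Gnrh1 on the Nefl side and Adam7 on the Nefm side, differed by 0.07 ± 0.058 and -0.01 ± 0.068 (log2, SE). Of the 53 olfactory receptor genes 30 were brighter than Adam7, so expression of Adam7 was not shown. The measured neighbours of Nefh (Thoc5 0.0082 ± 0.026 and Ap1b1 -0.05 ± 0.031), of Ina (Cnnm2 -0.06 ± 0.036 and Pcgf6 -0.05 ± 0.049) and of Prph (the alpha-tubulin gene Tuba1a 0.0039 ± 0.020 and Dnajc22 0.03 ± 0.055) were not called either. Genes that lie nearer were not analysed here: Dock5 by Nefl, LOC134482139 by Nefm, Nt5c2 by Ina, and Troap and a further gene by Prph.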

How the data were processed

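Whole ganglionic eminences of 12 rat embryos were profiled on Affymetrix Rat Gene ST arrays, 1 embryo per array. The deposited table holds log2 intensities made with Partek 6.4 and RMA, per the submitters' processing notes; its settings were not given in the sources used here. Such normalization can hide a shift of all genes, and short probes compress large differences. Of 29214 probe sets, 15310 carry 1 gene symbol in the platform annotation, 323 several and 13581 none; the brightest set stood for each of 14506 genes. The smallest SD of the difference between 2 arrays was 0.146, so no 2 arrays were alike.

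All probe sets were fitted with limma 3.58.1 in R 4.3.3 (genotype only, eBayes with an intensity trend, 2-sided, Benjamini-Hochberg at 0.05). Within-genotype correlations used exact permutation over all pairings, 2-sided. The fit was tested on simulated data with 50 planted differences of each size. It recovered 42% of those of 0.2, 58% of 0.3, 92% of 0.5 and 98% of 1, with 9 false calls. A gene that was not called can therefore still differ. Some genes with large measured differences, such as Hbb (-0.49) and Fabp7 (-0.41), were not called. The simulated noise was independent between probe sets, without effects shared within an array. The members and the gene lists were chosen with earlier results of these data known. Named were the members, per list the 2 genes of smallest p and a few defining markers (Dlx2 was not measured), the nearest measured neighbours, and the 6 genes most like Nefl and Nefm; other genes were named after their values were seen. Alternatives were a replicate block, other scalings, no intensity trend, array weights, dropping dim probe sets, the mean of a gene's probe sets, and leaving arrays out. Figures used matplotlib 3.10.9.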

Additional observations from a re-analysis of the deposited data

Results flagged for a closer look

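Within the groups of 6, 112 sets of values (56 named genes in 2 genotypes) were searched for a single embryo far from the rest, by Dixon's ratio of the gap to the range at its 95% critical value. Of these, 7 were found (6.25%), and chance gives about 1 in 20. Among the members, only Ina was found: homozygous 6 stood at 13.03, and the next homozygous embryo at 12.83. The same embryo stood apart for Kif5a (10.90, next 10.81) and for Cnnm2, the neighbour of Ina (9.04, next 8.92). The others were in wild type: Nsg2 in wild type 3 (12.41, next 12.48), P2rx3 in wild type 5 (7.23, next 7.32), Msx1 in wild type 6 (6.58, next 6.48) and Thoc5 in wild type 3 (10.96, next 10.88).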

How the results depend on the processing

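The differences of all 5 members moved by less than 1 SD between embryos in each of the 18 other settings run for them, although those of Nefh and Prph shrank by over 1.5 times in some, as given above. The replicate block and the mean of a gene's probe sets could not move them, since the groups are balanced and each member has 1 probe set. With 1 array left out the differences ranged from -0.46 to -0.38 for Nefl, -0.24 to -0.19 for Nefm, 0.069 to 0.13 for Nefh, -0.021 to 0.040 for Ina and 0.055 to 0.12 for Prph. The sign of Ina, which was never called, turned with centred arrays (-0.02). Nefl passed limma's threshold in 9 of 17 settings with a test and Nefm in 3. These 17 leave out the fits without an intensity trend, with array weights and without dim probe sets, for which the members are not given here. The number of probe sets called, 124, changed strongly: 302 with arrays centred on their medians, 414 with array weights, 255 without dim probe sets, 582 without wild type 1 and wild type 2, and 3 without an intensity trend. Leaving out 1 array gave between 4 and 200: 4 without wild type 5 or homozygous 4 or 5, 9 without homozygous 2 or 3, 10 without homozygous 1, 14 without wild type 6, 20 without wild type 4, 59 without homozygous 6, 70 without wild type 1 and 200 without wild type 3. Calls were split 66 higher to 58 lower, but 35 to 267 with centred arrays, 43 to 77 after quantile normalization and 44 to 74 after cyclic loess. Of the gene lists, young neurons gained 1 call (Nsg2) with centred arrays, array weights or without dim probe sets, 0 to 1 with 1 array left out, and 3 without wild type 1 and 2; the vessel list gained 1 (Cdh5) with array weights or without dim probe sets. The other 11 lists stayed at 0 in all 20 settings. No correlation passed adjustment in any of 4 other settings, among them the mean of a gene's probe sets, which leaves the members unchanged. The causes were not tested.

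Over all probe sets, replicate numbers did not clearly pair the embryos. Same-numbered embryos had correlations of deviations from -0.082 to 0.26, above 0.1 in 2 of 6 pairs. Of 6 wild-type embryos, 2 correlated best with their own number. For Nefm the SE of the difference was 0.045 without and 0.031 with the replicate block. Whether single genes follow the replicate number, as Nefm did in homozygous embryos, was not tested. With the replicate block 18 probe sets were called, and Nefl was not (adjusted p = 0.0717 in limma). The number of arrays and, for Nefh and Prph, the closeness to unexpressed genes limit precision.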
